A study of Mus musculus with 2 samples.

Results

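Plasmacytoid dendritic cells were selected from 2 droplet libraries of tumour immune cells by the UMIs they carried, and 79 were found among 11573 cells, 27 of 5245 in the vehicle library and 52 of 6328 in the LC427 library. A UMI is a molecular tag that stands for 1 captured RNA molecule. A cell was a barcode with at least 1000 UMIs, at least 400 detected genes and a mitochondrial share of UMIs of at most 10%. A plasmacytoid dendritic cell (pDC) was chosen by at least 2 detected genes out of 6 selection genes, Siglech, Ccr9, Cox6a2, Klk1, Pacsin1 and Smim5, and by 0 UMIs in Cd3d and Cd3e of T cells, Ncr1 of NK cells and Fscn1 of mature dendritic cells. Levels of the 6 selection genes, and shares of pDCs that follow from them, are therefore descriptions.

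Both groups were C57BL/6 female mice bearing MC38, an established mouse colon carcinoma line that was implanted and grown until day 14. One group received vehicle and the other LC427, a compound known here by its code name, and the series title names LRBA as the target and CTLA4 breakdown as the outcome. Tumours were digested, dead cells were removed, and beads were used to collect cells that carry CD45, the leucocyte common antigen, for 10x 5′ droplet capture. Each group is 1 library. Dose, schedule and the number of mice or tumours behind a library were not given in the sources used here, so there was no test between groups, and every interval below is a 95% interval for counting error alone. UMIs of 1 cell are not independent, which makes these intervals too narrow.

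pDCs are a dendritic lineage that senses nucleic acids in endosomes through Toll-like receptors and can release large amounts of type I interferon. The lineage is kept by the E protein Tcf4 together with Spib, Bcl11a, Irf8 and Runx2, and it shares secretory and B-cell-like features with plasma cells. In tumours pDCs often make little interferon and have been linked with tolerance.

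The selection genes lie apart in the genome. Siglech (ENSMUSG00000051504; GRCm38 chromosome 7, 55768178 to 55778925, plus strand), a sialic acid-binding receptor, and Klk1 (ENSMUSG00000063903; chromosome 7, 44225360 to 44229618, plus strand), a kallikrein protease, are on 1 chromosome with Cox6a2 (ENSMUSG00000030785; chromosome 7, 128205435 to 128206387, minus strand), a subunit of cytochrome c oxidase best known from muscle. Ccr9 (ENSMUSG00000029530; chromosome 9, 123678439 to 123784330, plus strand) is a chemokine receptor of gut homing, Pacsin1 (ENSMUSG00000040276; chromosome 17, 27655509 to 27711482, plus strand) an endocytic adaptor, and Smim5 (ENSMUSG00000048442; chromosome 11, 115899966 to 115906269, plus strand) a small membrane protein. Because the lineage depends on an E protein, promoters were searched for the E-box CAGGTG or its reverse complement CACCTG, over windows from 250 bases before to 50 bases after a gene's start. RefSeq windows (GRCm38.p6) for 33 of the 43 selection and pDC identity genes were used, and 11 of these genes had the motif in at least 1 window. Counted by window, 11 of 43, or 25.6%, held it, against 6640 of 32851, or 20.2%, of all windows of this length. A match describes letters in a window and is not a binding site. The 3 selection genes with a match are shown in the direction of the gene, with the E-box in capitals, at chr7:55767934-55768233, chr9:123766961-123767260 and chr7:44225110-44225409, all on the plus strand.
Siglech: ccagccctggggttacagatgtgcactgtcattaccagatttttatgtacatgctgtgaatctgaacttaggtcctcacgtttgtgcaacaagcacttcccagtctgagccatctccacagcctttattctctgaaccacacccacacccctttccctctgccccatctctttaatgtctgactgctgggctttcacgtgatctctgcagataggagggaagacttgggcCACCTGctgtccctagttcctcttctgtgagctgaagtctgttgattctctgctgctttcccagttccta
Ccr9: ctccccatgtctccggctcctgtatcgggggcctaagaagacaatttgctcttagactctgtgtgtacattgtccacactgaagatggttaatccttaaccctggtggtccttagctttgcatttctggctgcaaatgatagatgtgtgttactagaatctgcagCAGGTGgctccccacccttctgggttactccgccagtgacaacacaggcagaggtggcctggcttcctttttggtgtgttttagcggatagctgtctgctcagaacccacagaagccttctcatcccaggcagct
Klk1: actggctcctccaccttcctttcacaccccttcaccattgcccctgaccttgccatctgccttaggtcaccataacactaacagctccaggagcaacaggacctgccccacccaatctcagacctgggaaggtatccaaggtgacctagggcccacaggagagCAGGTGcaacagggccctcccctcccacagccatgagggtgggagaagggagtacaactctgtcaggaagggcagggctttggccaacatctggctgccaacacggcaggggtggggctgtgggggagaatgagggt
The E-box starts 20 bases before the RefSeq start of this window in Siglech, 85 before it in Ccr9 and 87 before it in Klk1. The RefSeq start used for Ccr9 lies inside the GENCODE gene given above, downstream of that gene's first base.

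Genes outside the selection matched the name pDC. Ly6d, a surface protein of lymphoid and pDC progenitors, had 92 UMIs and 958.4 CPM in vehicle pDCs, where CPM gives the level per 1000000 UMIs of the pDCs of a library, and 56 UMIs and 304.0 CPM in LC427 pDCs. All other cells had 3.48 CPM and 1.54 CPM of Ly6d, so pDCs were 276-fold (204.5 to 371) and 198-fold (127 to 311) higher. Tcf4, the lineage factor, had 1115 CPM and 662 CPM against 87.6 CPM and 83.1 CPM in other cells, 12.7-fold (10.4 to 15.4) and 7.97-fold (6.58 to 9.58) higher. As a description that the selection largely sets, every vehicle pDC carried at least 3 and every LC427 pDC at least 2 of the 6 lineage markers Siglech, Ccr9, Cox6a2, Klk1, Tcf4 and Ly6d.

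Across 646 genes outside the selection with at least 20 UMIs in the pDCs of each library, 15, or 2.32%, were at least 5-fold higher in pDCs than in all other cells in both libraries. At the lower limit of 1.5-fold, 99, or 15.3%, were higher and 26, or 4.02%, lower in both. The transcription factor Bcl11a had 365 CPM and 277 CPM in vehicle and LC427 pDCs, 112-fold and 67.7-fold above other cells. Atp1b1, a sodium pump subunit, had 427 CPM and 185 CPM, 47.1-fold and 37.8-fold above them. Bst2 (ENSMUSG00000046718; chromosome 8, 71534255 to 71537456, minus strand), a tetherin protein used as a pDC antigen, reached 2094 CPM and 1368 CPM but was also seen in other cells at 324.5 CPM and 274 CPM. Irf8 reached 1583 CPM and 825 CPM in pDCs, and cells gated as conventional dendritic cells had 1088 CPM and 1245 CPM. The genes lowest in pDCs relative to other cells included the S100 family gene S100a10 (510.5 CPM and 673 CPM against 1106 CPM and 1080.5 CPM), the intermediate filament gene Vim (833 CPM and 1379 CPM against 2227 CPM and 2221 CPM) and the metallothionein Mt1 (292 CPM and 809 CPM against 1349 CPM and 1251 CPM).

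**Figure D1:**
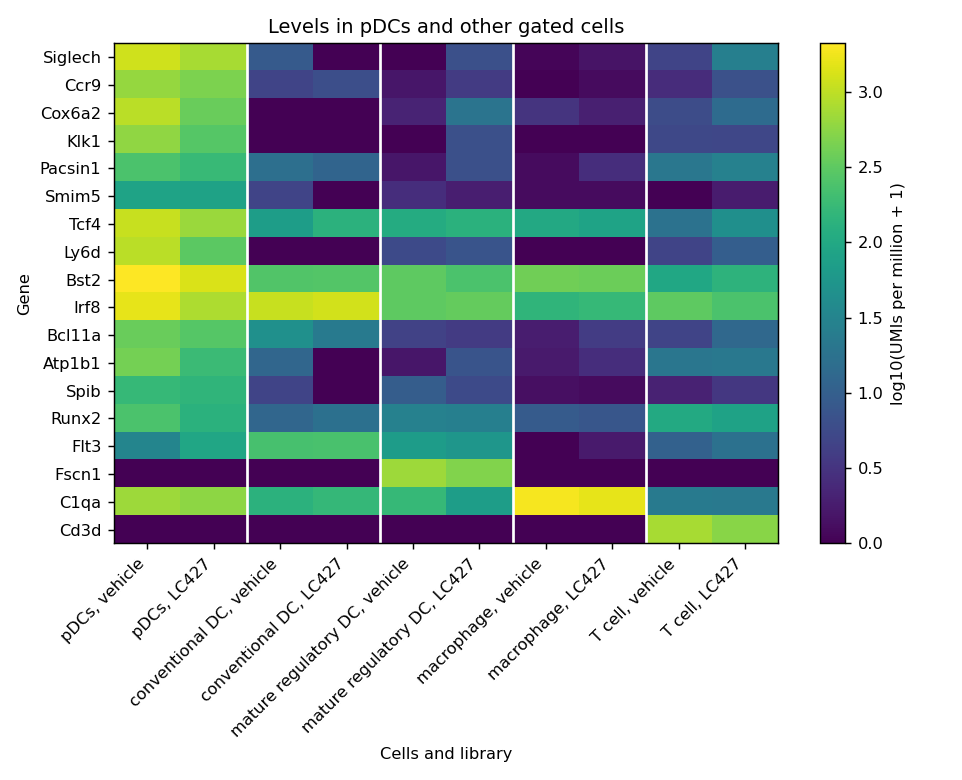
Level of each gene (rows) as log10 of CPM plus 1, in pDCs and in cells gated as conventional DCs, mature regulatory DCs, macrophages and T cells, with vehicle and LC427 side by side. The 6 genes at the top chose the pDCs, and Fscn1 and Cd3d are at 0 in pDCs by selection. Tcf4, Ly6d, Bst2, Bcl11a, Atp1b1 and Spib, which did not choose them, are highest in pDCs in both libraries, Irf8 is shared with conventional DCs, and C1qa is present in pDCs below its macrophage level.

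Xcr1 of cDC1 had 0 UMIs in the pDCs of both libraries against 134.0 CPM and 176 CPM in the conventional DC gate. In pDCs the DC factor Zbtb46 had 0 UMIs and 1 UMI, and the cDC1 receptor Clec9a had 3 and 4 UMIs. The conventional DC gate used at least 2 of Flt3, Xcr1, Clec9a, Cd209a and Zbtb46. Levels of these 5 genes in that gate are therefore set in part by selection, and contrasts with pDCs are descriptions. Markers of cDC2 were not absent, since the 6 on the list (Cd209a, Sirpa, Mgl2, Clec10a, Tnip3 and Itgam) summed to 792 CPM and 744 CPM in pDCs, 517 CPM and 406 CPM in conventional DCs, 1033 CPM and 953 CPM in gated macrophages and 546 CPM and 542 CPM in empty droplets. Of these the lectin Clec10a had 17 and 28 UMIs and Cd209a 2 UMIs and 1 UMI. Flt3, a receptor that drives dendritic development, had 31.2 CPM in vehicle pDCs and 92.3 CPM in LC427 pDCs, under the 226 CPM and 229.8 CPM of conventional DCs. MHC class II genes summed to 15168 CPM and 12876 CPM in pDCs against 39298 CPM and 30954 CPM in conventional DCs. pDCs thus held a lower level of MHC class II transcripts than conventional DCs in both libraries.

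Some B-lineage transcripts, which pDCs are known to carry, were present. The heavy chain gene Ighm had 58 UMIs in 23 of 27 vehicle pDCs and 59 UMIs in 38 of 52 LC427 pDCs, or 604 CPM and 320.3 CPM, where empty droplets held 383 CPM and 104 CPM (barcodes of 10 to 100 UMIs). The B-cell genes Ms4a1, Cd79a and Pax5 had 0 UMIs in the pDCs of both libraries, and Cd79b, the partner of Cd79a in the B-cell receptor, had 4 UMIs in 4 vehicle and 5 UMIs in 5 LC427 pDCs. Dntt, the lymphoid DNA polymerase TdT, had 115 CPM and 114.0 CPM in pDCs and 0 CPM and 0 CPM in conventional DCs. The inhibitory receptor Lag3 had 208 CPM in 13 vehicle pDCs and 168 CPM in 21 LC427 pDCs, levels below those of gated T cells (375 CPM and 395 CPM) and above those of macrophages (2.15 CPM and 2.69 CPM).

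The limit of 2 selection genes fell at a break in the other markers. The 59 vehicle and 68 LC427 cells with just 1 selection gene had 102 CPM and 109 CPM of Tcf4 and 4.73 CPM and 0 CPM of Ly6d. Cells with none of the 6 genes had 93.8 CPM and 84.2 CPM of Tcf4. Cells with exactly 2, which were 2 in vehicle and 10 in LC427, had 926 CPM and 1472 CPM of Tcf4 and 926 CPM and 706 CPM of Ly6d.

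pDCs were 0.515% (0.340 to 0.748, exact Clopper-Pearson) of vehicle cells and 0.822% (0.614 to 1.08) of LC427 cells, giving a ratio of 1.60 (1.00 to 2.54). The share was higher in LC427 in each of 7 other selections, with ratios from 1.16 when 1 selection gene was enough to 2.24 when barcodes of 500 UMIs were admitted. With every cell thinned to 1000 UMIs, so that depth was equal, the shares were 0.458% and 0.664%, a ratio of 1.45. Cells with 1 selection gene lacked the other markers, as given above, so the lowest ratio mixes in other cells. Without the limit on Cd3d, Cd3e, Ncr1 and Fscn1 there were 32 and 66 pDCs, and the ratio was 1.71. Because beads selected all CD45+ cells and shares sum to 1, more pDCs and fewer other cells cannot be told apart.

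**Figure D2:**
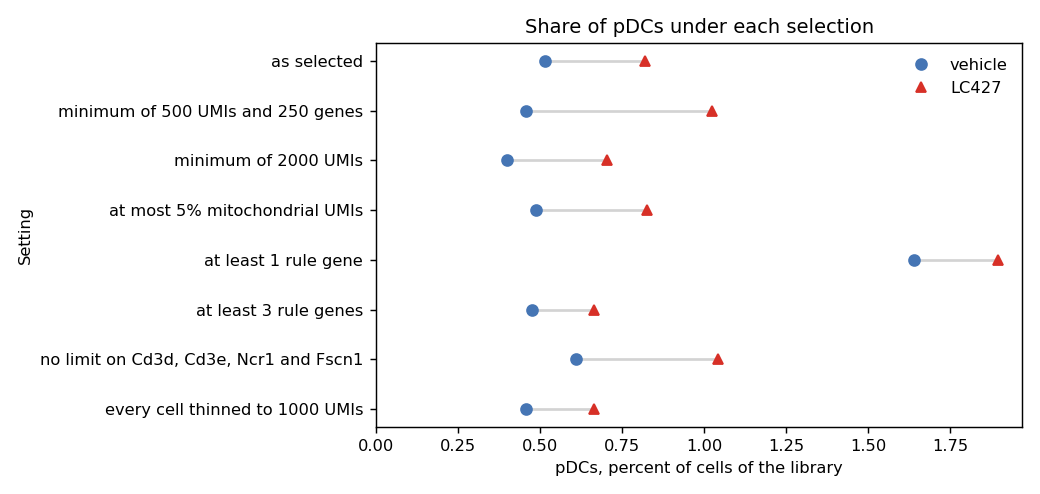
Share of pDCs among the cells of each library (horizontal axis, percent) under 8 selections (vertical axis), with circles for vehicle and triangles for LC427. LC427 lies to the right of vehicle in each selection, from 1.64% against 1.90% with 1 selection gene to 0.458% against 1.02% with a minimum of 500 UMIs. The minimum of 2000 UMIs gave 0.399% against 0.705%.

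Of the whole libraries, vehicle held 33711726 UMIs and LC427 28732435, with medians of 3560 and 2424.5 UMIs a cell, and LC427 was the shallower. Between the cells of the libraries 49 barcodes were shared, and 0 of these belonged to a pDC. The Lrba transcript had 4 UMIs in 4 pDCs of each library, or 41.7 CPM and 21.7 CPM, and Ctla4 had 4 UMIs in 2 vehicle pDCs and 10 UMIs in 3 LC427 pDCs. After thinning, 3.70% and 1.92% of pDCs had a Ctla4 UMI, against 29.4% and 23.03% of gated T cells and 0% and 0.212% of macrophages. The 8 genes of the LRBA and BEACH family summed to 177 CPM and 174 CPM, giving a ratio of 0.981 (0.529 to 1.88), and none reached 20 UMIs.

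pDCs differed widely in size, and their pDC transcripts grew less than their total UMIs. Vehicle pDCs held from 1083 to 12030 UMIs (median 2185) and LC427 pDCs from 1004 to 22659 (median 2072). Among pDCs of at most 3000 UMIs the medians were 1856 in vehicle and 1213 in LC427, and among larger ones 6369.5 and 5148. Comparisons within a size class are therefore not matched for UMIs a cell. The 6 selection genes together had 3 to 26 UMIs a cell in vehicle (median 13) and 3 to 17 in LC427 (median 7). In vehicle the median was 13 in the 19 pDCs of at most 3000 UMIs and 15 in the 8 larger ones. In LC427 it was 6 in 31 smaller and 9 in 21 larger pDCs. As a level the selection genes were therefore 6614 CPM in smaller and 1840 CPM in larger vehicle pDCs, and 4445 CPM and 1367 CPM in LC427. The selection asks for at least 2 of these genes in any cell, which sets a higher CPM in cells of few UMIs in part. Identity genes outside the selection summed to 25749 CPM in smaller and 11898 CPM in larger vehicle pDCs. In LC427 their sums were 22337 CPM and 7655 CPM.

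Larger pDCs carried transcripts of macrophages and monocytes. The 10 macrophage genes on the list used, C1qa, C1qb, C1qc, Apoe, Adgre1 and Csf1r among them, summed to 381 CPM in smaller and 6498 CPM in larger vehicle pDCs, and to 1592 CPM and 4698 CPM in LC427. Over all pDCs the sums were 4157 CPM and 3936 CPM, where empty droplets held 4253 CPM and 3754 CPM, and below the 12545 CPM and 9553 CPM of gated macrophages. Per cell the list took 0 to 1.80% of UMIs in vehicle, where 10 pDCs were at 0, and 0 to 1.41% in LC427, where 23 were at 0. The list passed 1% in 1 vehicle and 5 LC427 pDCs. Larger pDCs were 61.7% of vehicle and 75.5% of LC427 pDC UMIs, so sums over all pDCs lean on them, and the part of these transcripts in the differences below was not tested. No doublet caller was run.

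**Figure D3:**
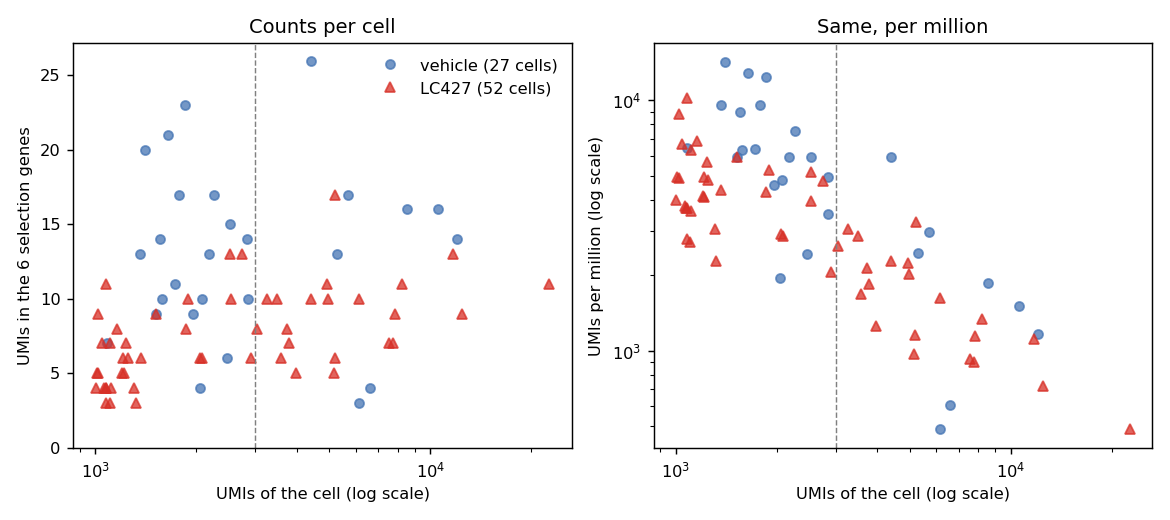
UMIs in the 6 selection genes against all UMIs of the cell (log scale), as counts on the left and as CPM of the cell on the right (log scale), 1 point per pDC, with circles for vehicle and triangles for LC427. The dashed line marks 3000 UMIs. Counts range from 3 to 26 in vehicle and from 3 to 17 in LC427. Medians are 13 and 15 in smaller and larger vehicle cells and 6 and 9 in LC427. The level in CPM falls towards larger cells, which the selection sets in part.

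pDC identity genes were lower in LC427 pDCs than in vehicle pDCs. Of 1958 genes with at least 20 UMIs over all pDCs, 268, or 13.7%, were at least 1.5-fold higher in LC427 and 350, or 17.9%, at least 1.5-fold lower. The median log2 ratio of LC427 to vehicle was -0.08 over these genes, and 274 of them had a counting interval that left out a ratio of 1. Of 30 identity genes outside the selection that could be compared, 16 were at least 1.5-fold lower and 1, Zeb2, was higher, with a median log2 ratio of -0.62 against -0.05 for the same genes in all other cells. Their sum was 17199 CPM in vehicle and 11259 CPM in LC427, giving a ratio of 0.655 (0.613 to 0.699). In pDCs of at most 3000 UMIs, a limit set after the values were seen, the sum was 25749 CPM and 22337 CPM. This gave a ratio of 0.868 (0.793 to 0.949), and the median log2 ratio was -0.15. These smaller pDCs had medians of 1856 and 1213 UMIs, so the limit did not match cell size. With every pDC thinned to 1000 UMIs the median was -0.32, so the direction was the same and the size smaller.

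Surface genes were among the single genes that were lower in LC427 pDCs. Ly6c2 (ENSMUSG00000022584; chromosome 15, 75108158 to 75111970, minus strand), a GPI-anchored protein of pDCs and monocytes, had 145 UMIs in 24 of 27 vehicle pDCs and 89 UMIs in 35 of 52 LC427 pDCs. Its level of 1511 CPM against 483 CPM gave a ratio of 0.320 (0.243 to 0.419), and other cells had 122 CPM and 125 CPM. In pDCs of at most 3000 UMIs the Ly6c2 ratio was 0.474 (0.316 to 0.703), so the difference was present in both size classes. After thinning, 70.4% of vehicle and 44.2% of LC427 pDCs had a Ly6c2 UMI.

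Ly6d (chromosome 15, 74762056 to 74763620, minus strand) was detected in 19 vehicle and 22 LC427 pDCs and had a ratio of 0.317 (0.223 to 0.447). The Ly6d ratio was 0.609 (0.376 to 0.979) in the smaller pDCs, and 59.3% against 34.6% of thinned pDCs had a UMI. Atp1b1 had a ratio of 0.432 (0.266 to 0.698), and 0.520 (0.259 to 1.01) in smaller pDCs. Bst2 had 201 UMIs in 27 vehicle pDCs and 252 in 50 LC427 pDCs, a ratio of 0.653 (0.541 to 0.790) that was 0.834 (0.640 to 1.09) in smaller pDCs. Pltp, a phospholipid transfer protein, had 68 UMIs in 20 vehicle and 52 UMIs in 31 LC427 pDCs, a ratio of 0.398 (0.272 to 0.580), and 0.488 (0.291 to 0.803) in smaller pDCs. For Ly6c2, Ly6d and Pltp the interval thus lay under 1 in all pDCs and in the smaller ones, while for Bst2 and Atp1b1 it reached 1 in the latter.

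**Figure D4:**
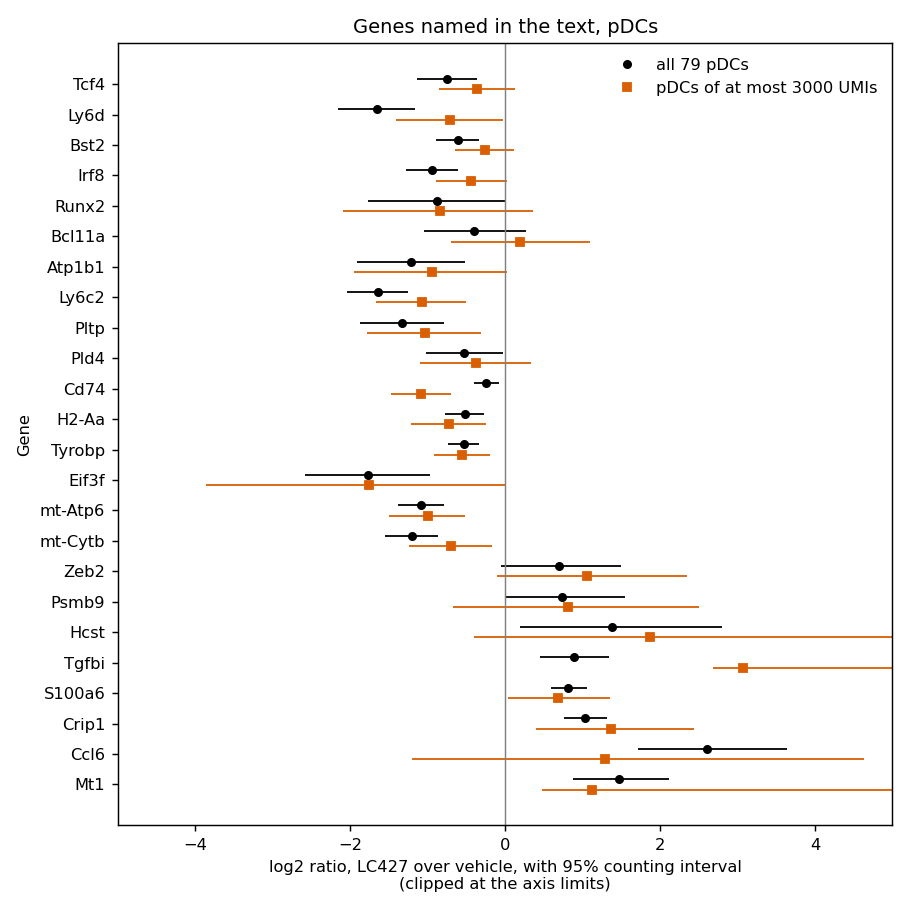
Ratio of LC427 to vehicle on a log2 axis for genes named in the text, with 95% counting intervals, over all 79 pDCs (circles) and over pDCs of at most 3000 UMIs (squares). Tgfbi and Mt1 had 0 UMIs in the smaller vehicle pDCs, and their squares stand at the bound set by 3 UMIs. Ly6c2 and Pltp lie left of 0 and Crip1 and S100a6 right of 0 in both sets, and the intervals of Bcl11a span 0 in both.

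Lineage transcription factors did not move as one. Of 14 factors compared, 7 were at least 1.5-fold lower (Tcf4, Runx2, Irf8, Irf7, Cbfa2t3, Runx1 and Spi1) and 2 higher (Zeb2 and Nfil3), against 17.9% and 13.7% of all genes. The median log2 ratio was -0.60, and it lay between -0.83 and -0.04 over 13 settings. The list summed to a ratio of 0.638 (0.566 to 0.719), and to 0.856 (0.720 to 1.02) in smaller pDCs, where the interval reached 1. Tcf4 had 107 UMIs in 26 vehicle pDCs and 122 UMIs in 42 LC427 pDCs, a ratio of 0.594 (0.454 to 0.778) that was 0.780 (0.555 to 1.09) in smaller pDCs. Irf8 had 152 UMIs in each library, a ratio of 0.521 (0.413 to 0.657) that was 0.738 (0.537 to 1.01) in smaller pDCs. Spib, an ETS factor of pDCs and B cells, had a ratio of 0.879 (0.457 to 1.75) and Bcl11a one of 0.759 (0.484 to 1.203), so neither was distinguishable from equal levels at this depth. Zeb2, a repressor that favours pDCs over cDC1, had 208 CPM and 337 CPM, giving a ratio of 1.62 (0.962 to 2.82). Factors of conventional DCs were low in both libraries, with Id2 at 104 CPM and 70.6 CPM against 532 CPM and 1176 CPM in conventional DCs.

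Levels of the selection genes, which the choice of cells sets in part, are given as a description. Siglech had 115 UMIs in 27 of 27 vehicle pDCs (1198 CPM) and 142 UMIs in 48 of 52 LC427 pDCs (771 CPM). Cox6a2 had 90 UMIs in 22 pDCs (938 CPM) and 67 UMIs in 28 pDCs (364 CPM), a share of thinned pDCs of 70.4% against 32.7%. Ccr9 had 625 CPM and 456 CPM, and thinned shares of 44.4% and 55.8% that ran the other way. Smim5 had 83.3 CPM and 81.4 CPM, with thinned shares of 11.1% and 17.3%. In thinned gated macrophages the share with a Siglech UMI was 0% in vehicle and 0.106% in LC427, and in T cells 0% and 1.28%.

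Nucleic acid sensing genes were present at low depth. Unc93b1, which carries Toll-like receptors to endosomes, had 490 CPM in 19 vehicle pDCs and 380.0 CPM in 35 LC427 pDCs. The RNA sensor Tlr7 had 7 and 11 UMIs, and the DNA sensor Tlr9 had 3 UMIs in vehicle and 0 in LC427, where 3 UMIs would be 16.3 CPM. Of 10 sensing genes compared, 0 were at least 1.5-fold higher and 2, Irf7 and Tmem173 (STING), lower, against 13.7% and 17.9% of all genes, with a median log2 ratio of -0.44. Irf7, the master factor of interferon production, had 229 CPM and 125 CPM, but 50% of its vehicle UMIs came from 1 cell, and the smaller pDCs had a ratio of 0.929 (0.294 to 3.01). Pld4, an endosomal exonuclease that limits TLR9 signals, had a ratio of 0.692 (0.490 to 0.981), and 0.767 (0.466 to 1.26) in smaller pDCs.

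No interferon transcript was seen in a pDC. All 20 interferon genes on the list, from Ifna1 to Ifnl3 with Ifnb1 among them, had 0 UMIs in the pDCs of both libraries, which allows up to 31.2 CPM in vehicle and 16.3 CPM in LC427 for a gene. Over all cells the 20 genes had 4 and 7 UMIs. As a share, 0 of 27 and 0 of 52 cells allow up to 11.1% and 5.77% of cells with a UMI. Il12b also had 0 UMIs in pDCs, and Tnf 1 UMI in each library.

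A list of ITAM adaptors, paired receptors and B-cell-like signalling genes, Siglech itself acting through an ITAM adaptor, was lower as a sum in LC427 in both size classes. It was 10772 CPM in vehicle and 7784 CPM in LC427, giving a ratio of 0.723 (0.667 to 0.784), with 0.740 (0.646 to 0.848) in smaller and 0.747 (0.674 to 0.828) in larger pDCs. In all other cells it was 5404 CPM and 4337 CPM, also lower in LC427. The adaptors Tyrobp and Fcer1g and the antigen Bst2 made up most of the sum in pDCs. Of 18 compared, 7 were at least 1.5-fold lower, Syk and Pik3ap1 among them, and 3 higher (Hcst, Cd300lf and Lilrb4a), against 17.9% and 13.7% of all genes. Tyrobp (DAP12), the adaptor of Siglech, had 357 UMIs in 27 vehicle pDCs and 472 UMIs in 51 LC427 pDCs. Its level of 3719 CPM against 2562 CPM gave a ratio of 0.689 (0.599 to 0.793), with 0.679 (0.529 to 0.870) in smaller pDCs. Hcst (DAP10), a related adaptor that lacks an ITAM, had 72.9 CPM and 190.0 CPM, giving a ratio of 2.60 (1.14 to 6.95) and, in smaller pDCs, of 3.66 (0.757 to 34.8). The 2 adaptors thus differed in opposite directions.

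MHC class II transcripts were lower as a sum, though not for each gene. Of 8 compared, 0 passed 1.5-fold either way, and the median log2 ratio was -0.29 in pDCs against 0.21 in other cells. Ctss, a protease that trims the invariant chain, had 1115 CPM and 1504 CPM, at a ratio of 1.35 (1.08 to 1.70), and H2-DMb1 had 1.34 (0.705 to 2.69). H2-Aa had 2427 CPM and 1688 CPM, giving a ratio of 0.696 (0.585 to 0.828), and 0.605 (0.430 to 0.846) in smaller pDCs. The invariant chain Cd74 had 5625 CPM and 4755 CPM, giving a ratio of 0.845 (0.758 to 0.943), which was 0.471 (0.360 to 0.614) in smaller pDCs. The class II sum had a ratio of 0.849 (0.795 to 0.907) over all pDCs and 0.673 (0.580 to 0.780) in the smaller ones, so here the larger cells made the difference smaller. MHC class I genes, 14 compared with 2 higher and 3 lower, near the 13.7% and 17.9% of all genes, summed to a ratio of 0.797 (0.733 to 0.866), and 0.844 (0.739 to 0.964) in smaller pDCs.

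Interferon-gamma response genes ran the other way. Of 11 compared, 5 were at least 1.5-fold higher in LC427 and 0 lower, with Gbp2, Iigp1, Ifi47 and Psmb9 among the former and against 13.7% and 17.9% of all genes, and the median log2 ratio was 0.28 in pDCs and 0.15 in other cells. The list summed to 2573 CPM and 3490 CPM, giving a ratio of 1.36 (1.17 to 1.58), and 1.12 (0.851 to 1.48) in smaller pDCs. Empty droplets held 2223 CPM and 3042 CPM of the list, near the pDC level and higher in LC427 too, and their part in the result was not tested. Psmb9, an immunoproteasome subunit, had a ratio of 1.67 (0.996 to 2.91), and Iigp1, an immunity-related GTPase, had 3 and 37 UMIs, a ratio of 6.43 (2.04 to 32.6). Gbp2 depended on cell size, with 30 of its 31 LC427 UMIs in pDCs over 3000 UMIs. Type I interferon response genes, 11 compared with 1 higher (Stat2) and 3 lower (Trim30a, Ly6a and Sp100), against 13.7% and 17.9% of all genes, had a median log2 ratio of -0.25.

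**Figure D5:**
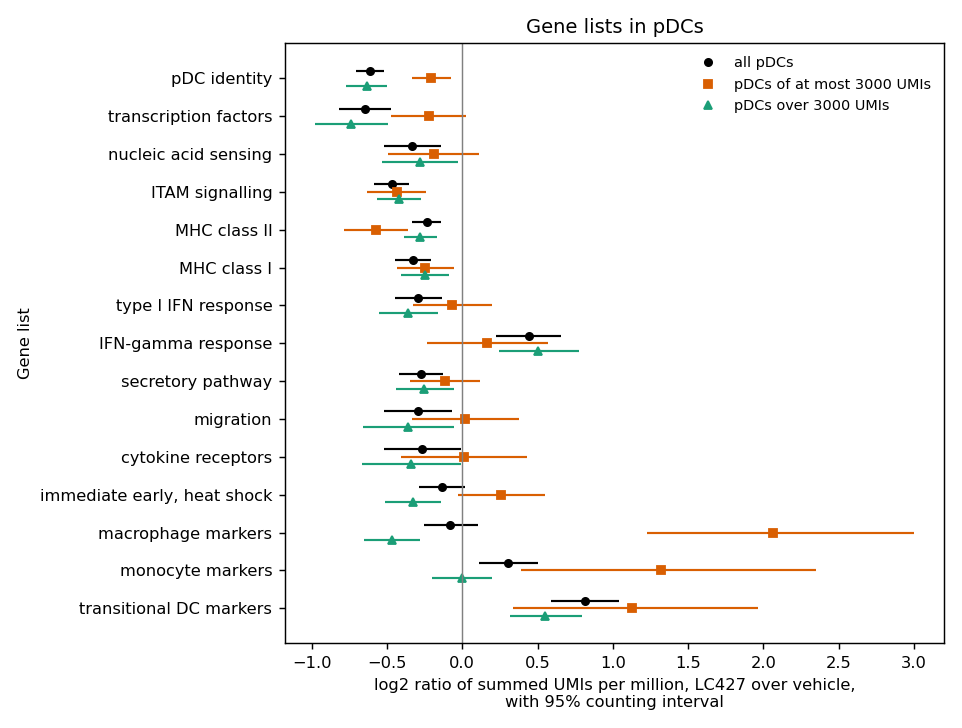
Ratio of summed CPM, LC427 over vehicle, on a log2 axis with 95% counting intervals, for 15 gene lists over all pDCs (circles), pDCs of at most 3000 UMIs (squares) and larger pDCs (triangles). ITAM signalling and both MHC lists lie left of 0 in all 3 sets, and interferon-gamma response lies right of 0 with an interval that reaches 0 in the smaller pDCs. The macrophage list runs in opposite directions in smaller and larger pDCs, and its LC427 sum in the smaller ones came mostly from few cells.

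Named genes that were higher in LC427 pDCs included Crip1, S100a6, Tgfbi and Ccl6. Ratios were larger, with wide intervals, for Fkbp5 (15.1, 2.51 to 617), Tnfaip2 (10.7, 2.775 to 91.2) and Ccl5 (9.38, 3.04 to 46.9). These had 1, 2 and 3 UMIs in vehicle pDCs. Fkbp5 was also higher in LC427 in other cells, at a ratio of 3.63, a log2 difference of 2.06 (-0.82 to 4.94). Its 157 CPM in LC427 pDCs was near the 152 CPM of LC427 empty droplets. Crip1, a LIM protein, had 135 UMIs in 15 vehicle pDCs and 531 UMIs in 38 LC427 pDCs, or 1406 CPM and 2882 CPM, giving a ratio of 2.05 (1.69 to 2.50) and of 2.57 (1.32 to 5.41) in smaller pDCs. S100a6 had 2073 CPM and 3653 CPM, giving a ratio of 1.76 (1.502 to 2.08), and 1.60 (1.02 to 2.55) in smaller pDCs. The S100a6 ratio in other cells was 1.48. Both genes were thus higher in either size class, yet below their level in other cells.

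Tgfbi, a secreted matrix protein of macrophages, had 573 CPM in 7 vehicle pDCs and 1058 CPM in 23 LC427 pDCs. Empty droplets held 493 CPM and 788 CPM of it. The ratio was 1.85 (1.36 to 2.54) in pDCs and 1.60 in other cells, a log2 difference of 0.21 (-0.23 to 0.64). Tgfbi thus was higher in LC427 outside pDCs too. It had 0 UMIs in smaller vehicle pDCs and 31 in 5 smaller LC427 pDCs, which is at least 8.40-fold higher against a floor of 3 UMIs for the group. The chemokine Ccl6 had 11 UMIs in 7 vehicle pDCs and 128 UMIs in 19 LC427 pDCs, a ratio of 6.06 (3.28 to 12.4). Of these LC427 UMIs 49.2% came from 1 cell, and Ccl6 had 589 CPM in empty droplets against 695 CPM in LC427 pDCs. Ccl5 had 3 UMIs in 1 vehicle pDC and 54 in 10 LC427 pDCs, of which 4 were in pDCs of at most 3000 UMIs. Chemokines went both ways, and Ccl2 had 32 UMIs in vehicle and 17 in LC427, at a ratio of 0.277 (0.144 to 0.514), with 71.9% of the vehicle UMIs in 1 cell. Ccl3 had 15 and 14 UMIs, a ratio of 0.486 (0.217 to 1.08). Ccl4, which pDCs made at 7.13-fold and 4.18-fold the level of other cells, was at 1615 CPM and 814 CPM, giving a ratio of 0.504 (0.400 to 0.635). In the smaller pDCs Ccl4 was at 2041 CPM and 1924 CPM, giving a ratio of 0.942 (0.684 to 1.30).

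Summed markers of macrophages and monocytes were higher in LC427 among the smaller pDCs and not among the larger ones. The macrophage list had a ratio of 0.947 (0.837 to 1.07) over all pDCs and of 0.723 (0.637 to 0.822) in larger ones. In smaller pDCs its ratio was 4.18 (2.34 to 8.02), from 14 and 72 UMIs, but the LC427 sum came mostly from few cells. The list passed 1% of UMIs in a smaller LC427 pDC of 2913 UMIs and took 0.922% in another of 2061 UMIs. It took at most 0.237% in every other smaller LC427 pDC. The ratio therefore does not describe smaller LC427 pDCs in general. The monocyte list had 1.24 (1.08 to 1.42) over all, 2.50 (1.31 to 5.10) in smaller and 0.997 (0.869 to 1.15) in larger pDCs. Markers of transitional dendritic cells, a state between pDCs and cDC2 (Axl, Cx3cr1, Cd83, Klf12, Crip1 and Lgals3), summed to 2156 CPM and 3789 CPM. Crip1, given above, held 135 of the 207 UMIs of this list in vehicle and 531 of the 698 in LC427. The sum is therefore largely that gene again. Axl had 62.5 CPM and 54.3 CPM and Cx3cr1 146 CPM and 86.8 CPM. In the gated macrophages this list stood at 4841 CPM and 4921 CPM. The part of other cells' RNA in the higher genes was not tested.

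The mitochondrially encoded genes mt-Atp8, mt-Atp6 and mt-Cytb, named by their rank among the lower genes, were lower in LC427 in pDCs and in other cells. In pDCs mt-Atp8 had a ratio of 0.355 (0.271 to 0.463) and in other cells 0.353. For mt-Atp6 the values were 0.471 (0.382 to 0.580) and 0.719, and for mt-Cytb 0.433 (0.341 to 0.548) and 0.609. The median mitochondrial share of a pDC was 2.53% in vehicle and 1.55% in LC427. Of genes outside the mitochondria, Eif3f, a translation initiation subunit, had 39 and 22 UMIs in 16 pDCs of each library, a ratio of 0.294 (0.166 to 0.508), against 0.748 in other cells. Eif3f stayed at 0.296 (0.0686 to 0.997) in smaller pDCs.

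The log2 ratio in pDCs was also set against that in all other cells of the same libraries, as a difference. Among the genes named, those given next had the intervals furthest from 0 each way. Large differences with bounds nearer to 0 included 3.05 (1.00 to 5.10) for Tnfaip2 and -1.89 (-3.13 to -0.66) for Pde4b. Lower by this measure were Ly6c2 at -1.69 (-2.08 to -1.30), the exchange factor Arhgef1 at -2.05 (-3.08 to -1.02) and the corepressor Cbfa2t3 at -1.86 (-2.83 to -0.90). The lectin Mgl2, at -2.30 (-3.60 to -0.99), and the protease inhibitor Cst3, at -1.10 (-1.34 to -0.86), were also lower, but 77.3% and 60.5% of their vehicle UMIs came from 1 cell each. Higher by this measure were Ccl5 at 4.29 (2.62 to 5.97), Ccl6 at 3.16 (2.27 to 4.05), Mmp12 at 3.29 (1.23 to 5.35), Fabp5 at 2.45 (1.26 to 3.64) and Ccl9 at 2.42 (1.28 to 3.56). In LC427 pDCs Ccl5, Mmp12, Fabp5 and Ccl9 had 293, 168, 157 and 282 CPM, against 234.5, 158, 147 and 245 CPM in empty droplets. In vehicle pDCs they had 31.2, 20.8, 72.9 and 72.9 CPM, against 450, 144, 291 and 232 CPM in empty droplets. The Fabp5 ratio was 2.16 (0.925 to 5.84) in pDCs and 0.395 in other cells. The part of empty-droplet RNA was not tested. For Ly6c2 the ratio in other cells was 1.03.

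In the authors' deposited table for vehicle, Siglech was highest in their cluster 12 of 13, with a mean of 0.242, and in the authors' deposited table for LC427 in cluster 7 of 11, with a mean of 0.368. Each library was clustered separately there. All 6 selection genes and Ly6d were highest in those same clusters in their authors' deposited table, some by little in vehicle. There Pacsin1 had 0.0554 against 0.0540 in cluster 11, Smim5 0.0117 against 0.0102 in cluster 4 and Ly6d 0.125 against 0.0873 in cluster 5. Tcf4 was highest in cluster 13 in vehicle and in cluster 7 in LC427. The means of a cluster summed to at most 2884.5 in vehicle and 1977 in LC427, so they are not on the CPM scale used above.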

How the data were processed

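For each library the authors deposited an unfiltered 10x matrix of raw UMI counts over 32285 genes. Per the submitters' processing notes Cell Ranger 3.0.1, Seurat 3 and GRCm38 (mm10) were used, while per the file headers the matrices came from Cell Ranger 4. The authors also deposited a table of mean signal per gene and cluster for each library. Gene positions are from GENCODE vM21. Groups were taken from the treatment labels.

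Cells were gated as in the report with Python 3.11.15, numpy 2.4.6, scipy 1.17.1 and pandas 2.3.3, and counts were summed over the pDCs of a library. CPM had exact Poisson intervals, ratios exact conditional binomial intervals, and differences of log2 ratios log-scale intervals. The ratio functions were checked on simulated data. A count of 0 stood at 3 UMIs for a bound. Comparison gates used at least 2 of Flt3, Xcr1, Clec9a, Cd209a and Zbtb46 (conventional DC), 3 of 4 macrophage genes, Adgre1, Csf1r and Fcgr1 among them, or 2 of Cd3d, Cd3e, Cd3g and Trac (T cell), with absent genes of other types. Named genes had at least 20 UMIs, 50 CPM and a level no lower than empty droplets. They were seen in at least 5 pDCs of the higher library and differed by 1.5-fold. They were ranked by the interval bound nearest to 1, up to 12 each way. Large differences from other cells, pDC genes ranked against other cells, and members of the gene lists were also named. Some list genes are not reported here by name. The members and lists were chosen with earlier results of these data known. Tried alternatives were other cell limits, selection limits, gene minimums, thinning, cell weights and TMM scaling (edgeR 4.0.16, R 4.3.3).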

Additional observations from a re-analysis of the deposited data

How the results depend on the processing

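The share ratio stayed above 1 under each alternative tried. The numbers of genes at least 1.5-fold higher and lower in LC427 changed with the setting, and so did the number of genes tested. They were 767 and 840 with a minimum of 10 UMIs a gene and 81 and 116 with 40. They were 118 and 144 in pDCs of at most 2 times the median UMIs and 81 and 114 at 3000 UMIs. With every pDC thinned to 1000 UMIs they were 84 and 87. With a minimum of 2000 UMIs a cell they were 194 and 289 of 1527, or 12.7% and 18.9%. TMM scaling gave 314 and 282 in place of 268 and 350, and a median of all genes of 0.01 in place of -0.08. The median log2 ratio of identity genes was -0.78 with a minimum of 2000 UMIs a cell, -0.23 at 2 times the median UMIs, -0.32 thinned, -0.23 with each pDC weighing the same, -0.50 with 10 UMIs a gene and -0.15 at 3000 UMIs. That of interferon-gamma response genes was 0.56 with at least 3 selection genes, 0.64 thinned and 0.69 with 10 UMIs a gene.

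Some single genes changed direction, and the cause was not tested. With at least 3 selection genes the log2 ratio was 0.06 for Irf7 and 0.05 for Ly6a. In pDCs of at most 2 times the median UMIs it was 0.07 for Mgl2, 0.28 for Cst3, 1.07 for Cd8b1 and 0.65 for Tlr9. Thinned, it was -0.14 for Ccl6, -0.53 for Gbp2, 0.28 for Irf7, 0.79 for Klra17 and 0.47 for Cd209d. With equal weights it was 0.13 for Klra17. In pDCs of at most 3000 UMIs it was -0.30 for Ly6i, 0.70 for Mgl2, -1.30 for Gbp2, 1.29 for Cd8b1, 0.35 for Klra17 and 1.29 for Tlr9. Tlr9 had 0 UMIs in LC427 pDCs, so its 0.65 and 1.29 are upper limits set by a floor of 3 UMIs and show no change of direction. Over 13 alternatives Ly6c2 lay between -2.10 and -1.08, Pltp between -1.48 and -0.99, Eif3f between -1.80 and -1.58 and Crip1 between 0.76 and 1.96. The 3000 UMI limit, and leaving out the pDC of most UMIs in each library, were chosen after seeing the data. No paired analysis was possible because each group has 1 library. With 27 and 52 cells, genes under 20 UMIs could not be compared.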

Other observations

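Receptors for migration and survival were compared as lists. Of 11 migration and adhesion genes, 0 were at least 1.5-fold higher and 2, Cx3cr1 among them, lower in LC427 pDCs, against 13.7% and 17.9% of all genes, with a median log2 ratio of -0.43, and the ratio of sums was 0.814 (0.696 to 0.953) over all pDCs and 1.01 (0.793 to 1.30) in pDCs of at most 3000 UMIs. Cxcr3, a chemokine receptor, had 0 UMIs in both. Of 11 cytokine receptor genes, 2 were higher (Flt3 and Il10ra) and 2 lower (Csf2rb2 and Ifnar1), close to those shares. Flt3 had 3 UMIs in 3 vehicle pDCs and 17 UMIs in 14 LC427 pDCs.

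Secretory pathway and unfolded protein response genes, which pDCs share with plasma cells, had 1 higher (Atf4) and 5 lower (Manf, Herpud1, Edem1, Spcs1 and Spcs2) of 20 compared, against the same shares, with a median log2 ratio of -0.26. Their sums were 6469 CPM and 5352 CPM, above the 4569 CPM and 4814 CPM of macrophages. Cell cycle genes were low in pDCs, at 1260 CPM and 1118 CPM against 5053 CPM and 5303 CPM in gated T cells, and Mki67 was seen in 2 and 4 pDCs. Costimulatory Cd80 had 1 UMI in each library. Cd86 was seen in 2 vehicle and 10 LC427 pDCs, at 20.8 CPM and 81.4 CPM, where empty droplets had 44.98 CPM and 45.4 CPM.

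The neutrophil gene S100a9 had 29 UMIs in 2 vehicle pDCs, 96.6% of them in 1 cell, and 1 UMI in LC427.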
